A study of Mus musculus with 2 samples.

Results

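Checkpoint and exhaustion genes of tumor-infiltrating lymphocytes were followed by name: Pdcd1, Ctla4, Lag3, Havcr2, Tigit, Entpd1, Tox and Tnfrsf9. All 8 were found among the 32285 genes counted in each of 2 single-cell RNA libraries, and each was read in 5 lymphocyte types. One library came from Pgd fl/fl mice, labelled WT, which carry a conditional allele of Pgd (the gene of 6-phosphogluconate dehydrogenase, 6PGD) and no Cre. The other came from Pgd fl/fl LysM Cre mice, labelled 6PGDKO, in which Cre is driven by the lysozyme M locus, active in myeloid cells. Each was a pool of AT3 mammary tumors from 10 female mice aged 6 to 12 weeks and taken on day 30, so the mice of a pool cannot be told apart. As to the sort, the labels give CD45+ cells in one place and live CD11b+ cells in another, and T and B cells, most of which lack CD11b, were plentiful.

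Molecules were counted as unique molecular identifiers (UMIs), and levels are given as UMIs of a gene per 1000000 UMIs of all genes (CPM), summed over the cells of a type. Cells were assigned to a type by UMIs of marker genes. CD8 cells carried Cd3 and Cd8a or Cd8b1, Foxp3-positive cells Cd3 and Foxp3 without Cd8, other CD4 cells Cd3 and Cd4 without Foxp3 or Cd8, gamma-delta cells Cd3 and Trdc without Trac, and NK cells Ncr1, Klrb1c or Klre1 with little Cd3 (group 1 innate lymphoid cells were not told apart from them). Cells with more than 1 UMI of macrophage, B cell or epithelial genes were left out. These gates gave 725 CD8, 277 Foxp3-positive, 246 other CD4, 24 gamma-delta and 31 NK cells in the WT library. In the 6PGDKO library they gave 449, 239, 112, 12 and 55 cells, respectively. Where a pair of values is given without names, WT comes first and 6PGDKO second. Of genes the gates did not use, all 4 markers of Foxp3-positive cells, all 5 of gamma-delta cells and all 6 of NK cells were highest in their own type in both libraries. For other CD4 cells this held for 4 of 4 markers in WT and 3 of 4 in 6PGDKO. For CD8 cells it held only for Gzmk among 4, the others (Nkg7, Ccl5 and Cst7) being highest in another lymphocyte type.

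After filtering, 3565 of 3728 and 2798 of 3014 barcodes remained, with a median of 5554 UMIs per cell in WT and 7926 in 6PGDKO. The paper describes the sorted cells of both genotypes as pooled, and the cells of each genotype are called a library here. Cells carried multiplexing oligonucleotide 309 in WT and 310 in 6PGDKO. All 3565 and 2798 kept cells had their own oligonucleotide highest. The libraries shared 0 barcodes, which a split of 1 pool by oligonucleotide would give in any case. Pgd itself was at 103 CPM in WT and 29.8 CPM in 6PGDKO macrophages and monocytes, or -1.78 as the log2 ratio of 6PGDKO to WT (95% interval -2.0 to -1.58). In CD8 cells the log2 ratio of Pgd was 0.24 (-0.17 to 0.64), and in Foxp3-positive cells -0.02 (-0.67 to 0.61). There was 1 library per genotype, so no test between genotypes was possible and no difference has a replicate check. Intervals are at 95% and cover only counting error. Each UMI enters as an independent count, so they are too narrow where few cells hold most UMIs.

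PD-1 (Pdcd1), CTLA-4, LAG-3, TIM-3 (Havcr2) and TIGIT are surface receptors that dampen T cell activation and are targets of checkpoint blockade. T cells that meet antigen for long in a tumor gain several of them together, under transcription factors such as TOX, while regulatory T cells marked by Foxp3 carry many of them as part of their usual program. CD39 (Entpd1) breaks down extracellular ATP, and 4-1BB (Tnfrsf9) is a costimulatory receptor that appears after stimulation through the T cell receptor. Naive T cells, which express Ccr7, Lef1 and Tcf7, have little of most of these products.

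In GRCm38.p6, the assembly that matches the mm10 build of the deposited counts, Pdcd1 (ENSMUSG00000026285) lies at chr1:94038305-94052553 and Ctla4 (ENSMUSG00000026011) on the same chromosome at chr1:60909025-60915832. Tnfrsf9 (ENSMUSG00000028965) lies at chr4:150920155-150946104 and Tox (ENSMUSG00000041272) at chr4:6686353-6991557. Havcr2 (ENSMUSG00000020399) lies at chr11:46454931-46481255, Lag3 (ENSMUSG00000030124) at chr6:124904359-124912434, Tigit (ENSMUSG00000071552) at chr16:43626137-43665125 and Entpd1 (ENSMUSG00000048120) at chr19:40612366-40741602. These spans cover the whole genes, introns included.

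The 250 bases before the transcription start are shown for Tnfrsf9, Havcr2 and Pdcd1, which with Lag3 had the highest ratios between the libraries in CD8 cells. RefSeq promoters were matched for 6 of the 8 genes, and those of Lag3 and Tox were not analysed here. Capitals mark matches on either strand to GGAAA, the core of NFAT sites (TTTCC on the opposite strand), and to TGANTCA, the AP-1 site. NFAT and AP-1 are factors that act after T cell receptor stimulation. Tnfrsf9 has 2 listed starts, the second of them inside the gene (chr4:150919905-150920154 and chr4:150927749-150927998, plus strand). Havcr2 is read from chr11:46454681-46454930 on the plus strand and Pdcd1 from chr1:94052554-94052803 on the minus strand, all 5′ to 3′ in GRCm38.p6, upstream of the first exon listed for that start.
Tnfrsf9 first start: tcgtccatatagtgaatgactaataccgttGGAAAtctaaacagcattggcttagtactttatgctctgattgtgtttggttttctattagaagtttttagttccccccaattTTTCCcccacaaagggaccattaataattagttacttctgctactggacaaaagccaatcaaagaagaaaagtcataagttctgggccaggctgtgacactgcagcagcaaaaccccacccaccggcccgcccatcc
Tnfrsf9 second start: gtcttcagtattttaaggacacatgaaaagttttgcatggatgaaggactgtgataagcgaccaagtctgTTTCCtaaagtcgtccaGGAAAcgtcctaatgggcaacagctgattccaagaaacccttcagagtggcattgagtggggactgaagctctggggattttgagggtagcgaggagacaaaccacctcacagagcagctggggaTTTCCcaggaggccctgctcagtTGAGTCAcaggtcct
Havcr2: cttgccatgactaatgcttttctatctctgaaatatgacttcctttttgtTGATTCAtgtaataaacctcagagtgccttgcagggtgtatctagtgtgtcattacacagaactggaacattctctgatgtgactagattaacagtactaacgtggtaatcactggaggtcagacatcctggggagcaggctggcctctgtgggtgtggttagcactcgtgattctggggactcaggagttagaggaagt
Pdcd1: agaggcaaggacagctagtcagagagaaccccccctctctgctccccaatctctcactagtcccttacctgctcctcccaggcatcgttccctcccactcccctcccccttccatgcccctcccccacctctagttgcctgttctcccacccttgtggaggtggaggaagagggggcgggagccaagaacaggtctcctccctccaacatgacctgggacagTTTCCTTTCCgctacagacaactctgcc

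GGAAA occurred 2 times before the first and 3 times before the second start of Tnfrsf9, 2 times before Pdcd1 and not before Havcr2. TGANTCA occurred before the second Tnfrsf9 start and before Havcr2. Among the other genes, GGAAA occurred 2 times before Tigit, 1 time before Ctla4 and 2 times before the second of 2 Entpd1 starts. The Nr4a site AAAGGTCA occurred in no window of these 6 genes. Over all 32851 listed windows of this length, 55.6% held GGAAA, 6.75% TGANTCA and 1.34% AAAGGTCA. Matches to GGAAA and TGANTCA did not overlap in the windows shown. These matches describe the letters of the windows and were not tested for binding.

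The question was first where the genes were expressed. Foxp3-positive cells had the highest level of Ctla4, Havcr2, Tigit, Entpd1, Tox and Tnfrsf9 in both libraries, and other CD4 cells the highest level of Pdcd1. CD8 cells, the most numerous type, carried lower levels of each gene than Foxp3-positive or other CD4 cells in both libraries. The intervals of CD8 and other CD4 cells overlapped for Entpd1 in both libraries and for Tigit in 6PGDKO.

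Pdcd1 was at 71.2 CPM in WT and 135 CPM in 6PGDKO CD8 cells, and at 203 and 328 CPM in other CD4 cells. In Foxp3-positive cells it was at 203 and 219 CPM. The WT levels of Foxp3-positive and other CD4 cells were thus equal within their intervals, whereas in 6PGDKO the other CD4 cells were higher. Gamma-delta cells had 11 and 5 Pdcd1 UMIs and NK cells 3 and 8.

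Ctla4, whose product competes with CD28 for its ligands, was at 1076 and 1184 CPM in Foxp3-positive cells, 473 and 641 CPM in other CD4 cells and 92.3 and 109 CPM in CD8 cells. The Foxp3-positive level was 11.7-fold that of CD8 cells in WT and 10.9-fold in 6PGDKO. The intervals of these 3 types did not overlap in either library.

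Lag3, a receptor that binds MHC class II, was at 148 and 107 CPM in Foxp3-positive, 91.0 and 145 CPM in other CD4 and 17.3 and 33.3 CPM in CD8 cells. Its order of types therefore differed between the libraries. Foxp3-positive cells were highest in WT and other CD4 cells highest in 6PGDKO, where the 2 intervals overlapped. Macrophages and monocytes also carried Lag3, at 32.0 and 25.6 CPM, in WT above the level of CD8 cells.

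Havcr2 was at 118 and 131 CPM in Foxp3-positive, 49.6 and 77.6 CPM in other CD4 and 11.3 and 25.1 CPM in CD8 cells. Gamma-delta cells had 0 Havcr2 UMIs in both libraries, where 3 UMIs would have been 25.1 and 36.6 CPM. Macrophages and monocytes carried more of it than any lymphocyte type, at 183 and 190 CPM.

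Tigit ranged in the WT library from 43.6 CPM in Foxp3-positive to 3.55 CPM in CD8 cells, with 0 UMIs in gamma-delta and NK cells. In 6PGDKO it ranged from 42.4 CPM in Foxp3-positive to 2.86 CPM in NK cells, the latter from 1 UMI. Entpd1 was at 69.7 and 71.5 CPM in Foxp3-positive cells, 23.2 and 17.2 CPM in other CD4 cells and 12.3 and 15.5 CPM in CD8 cells. It was also a macrophage and monocyte gene, at 138 and 132 CPM there.

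Tox, a transcription factor needed for the exhausted state, was at 135 and 141 CPM in Foxp3-positive, 117 and 129 CPM in other CD4 and 42.0 and 52.3 CPM in CD8 cells. The intervals of Foxp3-positive and other CD4 cells overlapped in both libraries. Tnfrsf9 was at 1573 and 1774 CPM in Foxp3-positive, 309 and 602 CPM in other CD4, 207 and 263 CPM in NK and 75.6 and 198 CPM in CD8 cells. Its Foxp3-positive level was 20.8-fold that of CD8 cells in WT and 8.94-fold in 6PGDKO.

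**Figure D1:**
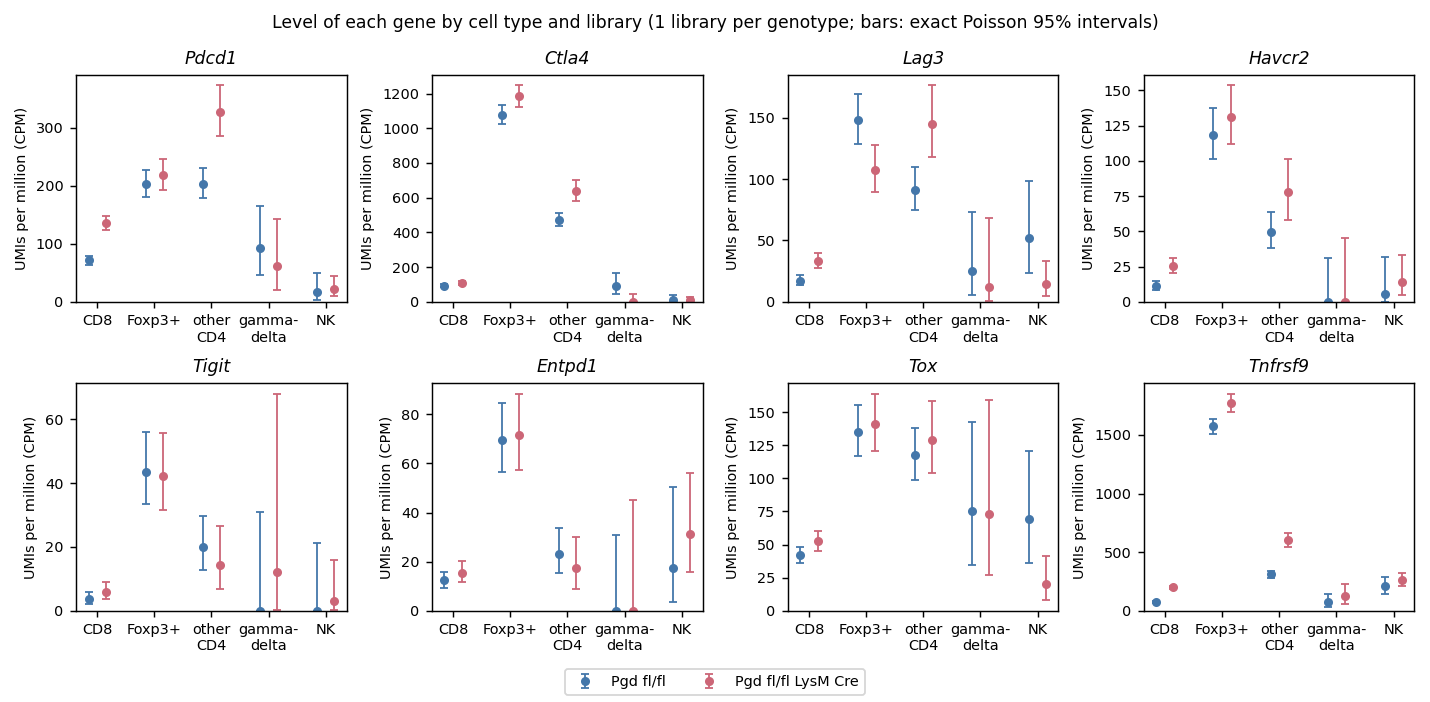
Level of each gene (CPM, linear axis from 0) in 5 lymphocyte types of the WT (blue) and 6PGDKO (red) libraries, where WT is Pgd fl/fl and 6PGDKO is Pgd fl/fl LysM Cre, points are 1 library each and bars exact Poisson 95% intervals. Foxp3-positive cells were highest for 6 genes in both libraries, and in CD8 and other CD4 cells the 6PGDKO point lay above the WT point for Pdcd1 and Tnfrsf9.

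The second question was whether the genes differed between the libraries within a type. In CD8 cells all 8 genes were higher in the 6PGDKO library, and together they were at 326 CPM in WT and 574 CPM in 6PGDKO, a log2 ratio of 0.82 (0.72 to 0.91). Of these, 2 (Tnfrsf9 and Havcr2) were at least 2-fold higher and 0 at least 2-fold lower. Of the 9952 genes with at least 20 UMIs in CD8 cells, 4.1% were at least 2-fold higher and 1.17% at least 2-fold lower, and 65.8% had a ratio above 0. The median log2 ratio was 0.82 over the 8 genes and 0.12 over all 9952.

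Tnfrsf9 had 362 UMIs in WT and 679 in 6PGDKO CD8 cells, a 2.62-fold higher level with a log2 ratio of 1.39 (1.21 to 1.58). In each library the 5 cells with most Tnfrsf9 UMIs held 23.5% and 14.7% of them. Tnfrsf9 made up 23.2% of the UMIs of the 8 genes in the first and 34.6% in the second library. Without it, the log2 ratio of the summed other 7 genes was 0.59 (0.47 to 0.70), a sum chosen after the values were seen.

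Pdcd1 had 341 and 462 UMIs and a log2 ratio of 0.92 (0.72 to 1.13), and Lag3 83 and 114 UMIs and 0.94 (0.52 to 1.37). Havcr2, with 54 and 86 UMIs, had a log2 ratio of 1.16 (0.65 to 1.67). The lower bounds of all 3 lay above the median of all genes. Havcr2 rested on few cells, as 5 cells held 29.6% of its UMIs in WT and 37.2% in 6PGDKO. It is also a macrophage gene, and in CD8 cells with 0 UMIs of macrophage, B cell and epithelial genes its log2 ratio was 1.17. In cells thinned to 2000 UMIs each, the ratio was 0.61 (-0.41 to 1.62) for Havcr2 and 0.50 (0.10 to 0.89) for Pdcd1, both below 2-fold. The Lag3 ratio stayed within its interval in 11 of 13 other settings. It was lowest as a mean over cells, at 0.39, below that interval.

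Ctla4 had 442 and 372 UMIs in CD8 cells and a log2 ratio of 0.24 (0.03 to 0.44), Tox 201 and 179 UMIs and 0.32 (0.02 to 0.61). Scaled by the median ratio of all genes in place of the total, these were 0.11 (-0.09 to 0.31) and 0.19 (-0.11 to 0.49), while Tnfrsf9 was 1.27 and the sum 0.69. Entpd1, with 59 and 53 UMIs, had a ratio of 0.33 (-0.23 to 0.89), and Tigit, with 17 and 20 UMIs, 0.72 (-0.29 to 1.74). A difference of Ctla4, Tox, Entpd1 or Tigit was therefore not detectable beyond the shift of all genes at this depth.

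In Foxp3-positive cells the 8 genes were close between the libraries. Of the 8, 0 were 2-fold higher and 0 lower, against 1.9% and 2.02% of 7940 genes, and the median log2 ratio was 0.09 over the 8 genes and -0.002 over all. Tnfrsf9 had 2235 and 2134 UMIs and a log2 ratio of 0.17 (0.09 to 0.26), and Ctla4 1529 and 1424 UMIs and 0.14 (0.03 to 0.24). Pdcd1, Havcr2, Tigit, Entpd1 and Tox lay between -0.04 and 0.15, with intervals that included 0. Without cycling cells the Pdcd1 ratio was 0.64 (0.33 to 0.96). The summed log2 ratio was 0.12 (0.07 to 0.18), but -0.21 when cells with UMIs of other cell types were kept, so its direction rests on that limit.

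Lag3 was the only one of the 8 whose interval lay below 0 in Foxp3-positive cells, with 210 and 129 UMIs and a log2 ratio of -0.46 (-0.79 to -0.14). It had a UMI in 29.2% of 277 and 26.8% of 239 cells, with 2.59 and 2.02 UMIs per cell with any. In cells thinned to 2000 UMIs each, its ratio was 0.05 (-0.46 to 0.55), so the difference was not seen at equal depth per cell.

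In other CD4 cells 6 of the 8 genes were higher in 6PGDKO, and the summed log2 ratio was 0.60 (0.50 to 0.71). Of the 8, 0 were 2-fold higher and 0 lower, while 5.02% of 7198 genes were at least 2-fold higher and 3.75% at least 2-fold lower. The median log2 ratio was 0.54 over the 8 genes and 0.10 over all, and scaled by the median ratio of all genes the sum was 0.45, with Tox at -0.02 and Havcr2 at 0.49 (-0.07 to 1.04). Tnfrsf9 again had the highest ratio, 0.96 (0.76 to 1.17), with 373 and 419 UMIs from 246 and 112 cells.

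Pdcd1 had a log2 ratio of 0.69 (0.43 to 0.96), Lag3 0.67 (0.27 to 1.08), Havcr2 0.64 (0.09 to 1.20) and Ctla4 0.44 (0.26 to 0.62) in other CD4 cells. Of the 446 Ctla4 UMIs in 6PGDKO, 33.2% lay in 5 cells. Tox, at 0.14 (-0.26 to 0.53), Tigit, at -0.47 (-1.69 to 0.65) from 24 and 10 UMIs, and Entpd1, at -0.43 (-1.54 to 0.60) from 28 and 12 UMIs, had intervals that included 0. Since a Foxp3 transcript can be missed in a cell, the other CD4 cells may include regulatory T cells. Without cells that carried Il2ra or Ikzf2 the summed ratio was 0.62 (0.33 to 0.89), with Ctla4 at 0.06. In those cells 4 of the genes were above 2-fold from few UMIs: Havcr2 at 2.31 (0.82 to 3.85) from 8 and 10 UMIs, Lag3 at 1.30 (0.18 to 2.36), Tnfrsf9 at 1.21 (0.48 to 1.91) and Pdcd1 at 1.19 (0.58 to 1.79). Entpd1 was at -1.33 (-6.77 to 1.48) from 10 and 1 UMIs. With no limit on UMIs of other cell types, the Lag3 ratio was 0.06, the Ctla4 ratio -0.06, the Tox ratio -0.34 and the summed ratio 0.25. With at least 2 Cd4 UMIs per cell, the summed ratio was 0.42, the Lag3 ratio 0.14 (-0.31 to 0.59) and the Tnfrsf9 ratio 0.71.

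**Figure D2:**
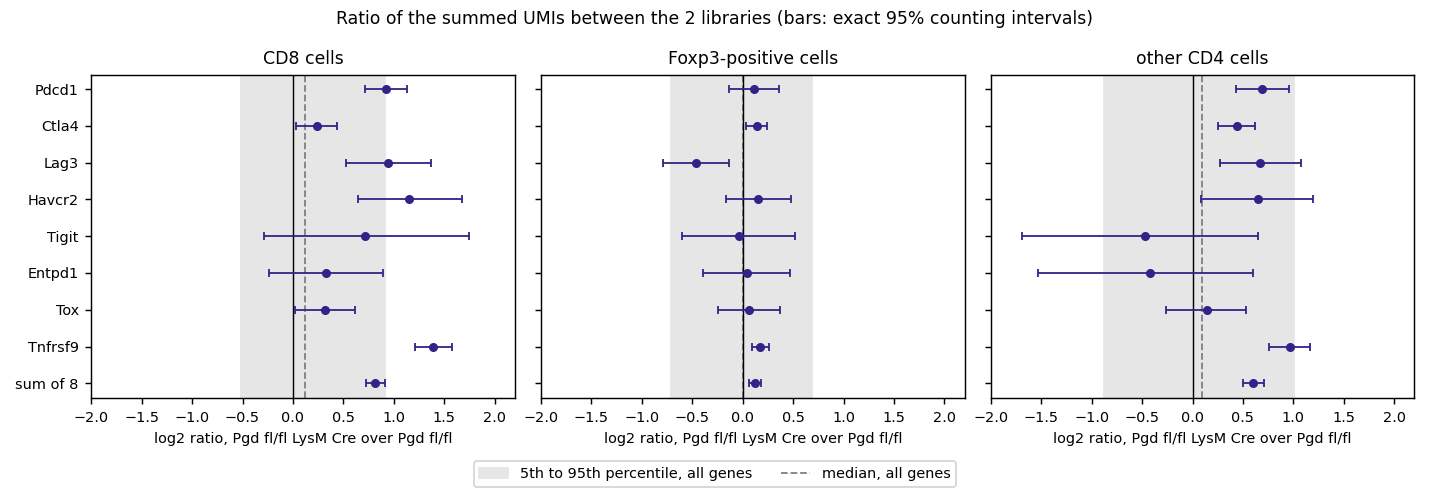
Log2 ratio of summed UMIs scaled to the total, 6PGDKO (Pgd fl/fl LysM Cre) over WT (Pgd fl/fl), for each gene and for the sum of the 8 in CD8, Foxp3-positive and other CD4 cells, where bars are exact 95% counting intervals, the grey band the 5th to 95th percentile and the dashed line the median of all genes with at least 20 UMIs. Tnfrsf9, Havcr2, Lag3 and Pdcd1 lay to the right of the band in CD8 cells, and the genes of Foxp3-positive cells lay near 0 except Lag3 at -0.46.

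Gamma-delta and NK cells were few. In gamma-delta cells none of the 8 genes reached 20 UMIs, while 5.98% of 1255 genes were at least 2-fold higher and 8.53% at least 2-fold lower. The 8 genes together had 43 and 23 UMIs there, a log2 ratio of -0.36 (-1.16 to 0.40). Ctla4 had 11 UMIs in 24 WT cells and 0 in 12 6PGDKO cells, 2.52-fold lower when the 0 is counted as 3 UMIs. The upper bound of its log2 ratio was -0.78, and the 11 UMIs came from 5 cells.

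In NK cells Tnfrsf9 alone reached 20 UMIs, with 36 and 92 UMIs and a log2 ratio of 0.34 (-0.23 to 0.94), and 50% of the 92 lay in 5 cells. It was not past 2-fold, whereas 6.92% of 3221 genes were at least 2-fold higher and 4.78% at least 2-fold lower. In NK cells thinned to 2000 UMIs the Tnfrsf9 ratio was above 2-fold, at 1.20 (-0.03 to 2.64), with a UMI in 16.1% of 31 and 42.3% of 52 cells. Lag3, with 9 and 5 UMIs, had a log2 ratio of -1.86 (-3.78 to -0.13), and Tox, with 12 and 7 UMIs, -1.79 (-3.37 to -0.33). The sum of the 8 genes was at 379.9 CPM in WT and 379.7 CPM in 6PGDKO, with an interval of the log2 ratio from -0.44 to 0.45.

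To compare cells at equal depth, each was thinned at random to 2000 UMIs, which left out 10 and 4 CD8, 11 and 10 Foxp3-positive and 6 and 3 other CD4 cells. Tnfrsf9 then had a UMI in 8.67% of 715 WT and 18.9% of 445 6PGDKO CD8 cells (19.3% and 37.4% before thinning). Pdcd1 had one in 10.2% and 15.5% (17.7% and 28.7% before). In B cells, which should lack most of the genes (CD39 is also found on B cells), each had a UMI in at most 1.43% of 490 WT cells and at most 1 of 30 6PGDKO cells after thinning. The median cell before thinning had 5970 and 6569 UMIs in CD8, 4197 and 3865 in Foxp3-positive, 4345 and 4628 in other CD4 and 3346.5 and 3017 in B cells.

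The shares of the other genes in thinned CD8 cells were 15.8% and 17.3% for Ctla4, 6.71% and 8.99% for Tox, 2.66% and 5.84% for Lag3, 2.94% and 3.60% for Entpd1, 2.52% and 3.15% for Havcr2 and 1.12% and 0.674% for Tigit. Tnfrsf9 was the only one of the 8 whose intervals did not overlap between the libraries, the upper bound in WT being 10.98% and the lower bound in 6PGDKO 15.3%. Tigit had a UMI in 0 of 506 unthinned WT B cells, which allows a share of cells with a UMI, not of cells that express it, of up to 0.593% when the 0 is counted as 3 cells.

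In thinned CD8 cells, 66.2% of WT cells had a UMI of none of the 8 genes (62.6 to 69.6%), against 56.2% of 6PGDKO cells (51.4 to 60.8%). The share with 3 or more of the genes was 3.92% (2.62 to 5.61%) and 8.76% (6.31 to 11.8%). Other CD4 cells had none of the genes in 40% and 16.5% of cells and 3 or more in 20% and 38.5%. In Foxp3-positive cells the shares with none were 3.01% and 0.437%, and those with 3 or more 54.5% and 58.1%, with overlapping intervals in both cases.

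**Figure D3:**
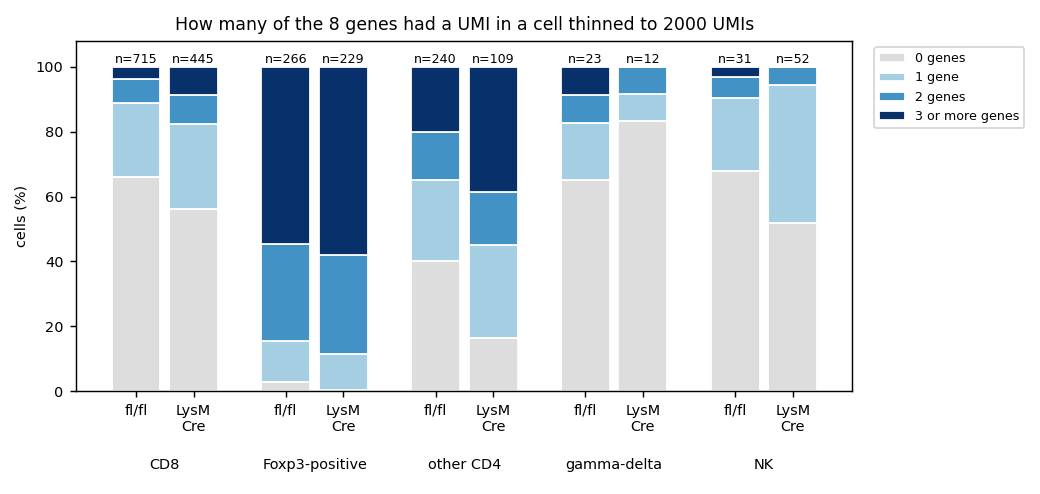
Share of cells (%) in which 0, 1, 2 or 3 or more of the 8 genes had a UMI after thinning to 2000 UMIs, by type and library (fl/fl is WT, LysM Cre is 6PGDKO), with the number of cells above each bar. Foxp3-positive cells carried 3 or more in 54.5% and 58.1%, and CD8 and other CD4 cells had fewer cells with none in 6PGDKO.

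Within CD8 cells Pdcd1 and Tnfrsf9 were found together. Of the 62 WT cells with Tnfrsf9, 33.9% (22.3 to 47.0%) also had Pdcd1, against 7.96% of the 653 without. In 6PGDKO the shares were 39.3% (28.8 to 50.5%) of 84 and 9.97% of 361 cells. Of WT cells with Ctla4, 15% of 113 had Tnfrsf9 (9.01 to 23.0%), against 7.48% of the 602 without Ctla4. The 6PGDKO shares were 39.0% of 77 (28.0 to 50.8%) with Ctla4 and 14.7% of 368 without.

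In other CD4 cells Tnfrsf9-positive cells had Pdcd1 in 52.7% of 55 and 63.3% of 49 cells, against 14.1% and 28.3% of cells without Tnfrsf9. Before thinning, Tnfrsf9 was found in 32.5% and 61.6% of other CD4 cells. In Foxp3-positive cells most cells had Tnfrsf9, 84.2% and 92.1% (92.1% and 97.9% before thinning), and Pdcd1 was found in 28.6% and 27.5% of them. These shares describe the cells of 1 library each, which are not replicates. The remaining T cells, 412 in WT and 248 in 6PGDKO, carried Cd3 but met no gate, and their summed log2 ratio was 0.65 (0.57 to 0.74), with Tnfrsf9 at 0.98 and Pdcd1 at 0.87.

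Of 9 genes of naive and stem-like T cells, 2 were at least 2-fold lower in 6PGDKO CD8 cells, against 1.17% of all genes, and 3 in other CD4 cells, against 3.75%. In CD8 cells these were Lef1, with 511 and 95 UMIs and a log2 ratio of -1.94 (-2.27 to -1.62), and Id3, a factor of memory T cells, at -1.0 (-1.21 to -0.80). In other CD4 cells they were Tcf7 at -1.47, Lef1 at -1.86 and Id3 at -1.95. Ccr7, also on the list, was at 0.03 (-0.12 to 0.19) in CD8 and 0.43 (0.26 to 0.60) in other CD4 cells, and Il7r was at -0.29 (-0.40 to -0.19) and 0.06 (-0.12 to 0.24). In Foxp3-positive cells 1 of the 9, Tcf7, was past 2-fold, at -1.61 from 18 and 5 UMIs, against 2.02% of all genes. Ccr7 was at 0.77 (0.63 to 0.92) there and the sum of the list at 0.15 (0.09 to 0.21). In gamma-delta cells 4 of the 6 with 20 UMIs were at least 2-fold lower, against 8.53% of all genes.

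Of thinned CD8 cells, 32.3% in WT and 22.7% in 6PGDKO had a UMI of Tcf7, a transcription factor of naive and stem-like T cells, or of Slamf6, a surface receptor of the same cells. In the cells without one, the summed log2 ratio of the 8 genes was 0.50 (0.30 to 0.70), against 0.61 (0.42 to 0.79) over all thinned CD8 cells. Tnfrsf9 was at 87.8 and 202 CPM there, a log2 ratio of 1.20 (0.80 to 1.61). Pdcd1 was at 104 and 129 CPM, 0.31 (-0.12 to 0.74), and Ctla4 at 124 and 124 CPM, where the interval of the log2 ratio ran from -0.42 to 0.41. In the cells with a UMI of Tcf7 or Slamf6, the summed ratio was 0.71 (0.26 to 1.16), from 102 and 73 UMIs in 231 and 101 cells. The 2 intervals of the summed ratio overlapped.

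Other CD4 cells had a UMI of Tcf7 or Slamf6 in 42.5% and 21.1% of thinned cells. The summed log2 ratio was 0.45 (0.27 to 0.64) in cells without one and 1.56 (1.18 to 1.94) in cells with one, intervals that did not overlap. Tnfrsf9 was at 0.68 (0.35 to 1.02) in cells without, and at 2.0 (0.99 to 2.99) from 20 and 18 UMIs in the 102 and 23 cells with one. With all UMIs of a cell counted, the summed ratio in cells without Tcf7 or Slamf6 was 0.57 (0.44 to 0.70) in CD8 and 0.13 (0.0032 to 0.27) in other CD4 cells. A Tcf7 or Slamf6 transcript can be missed in a cell, more so after thinning, so cells without a UMI may include naive-like cells. The split therefore cannot hold the make-up of a gate equal between the libraries. How far that make-up sets the ratio of a gene was not tested.

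**Figure D4:**
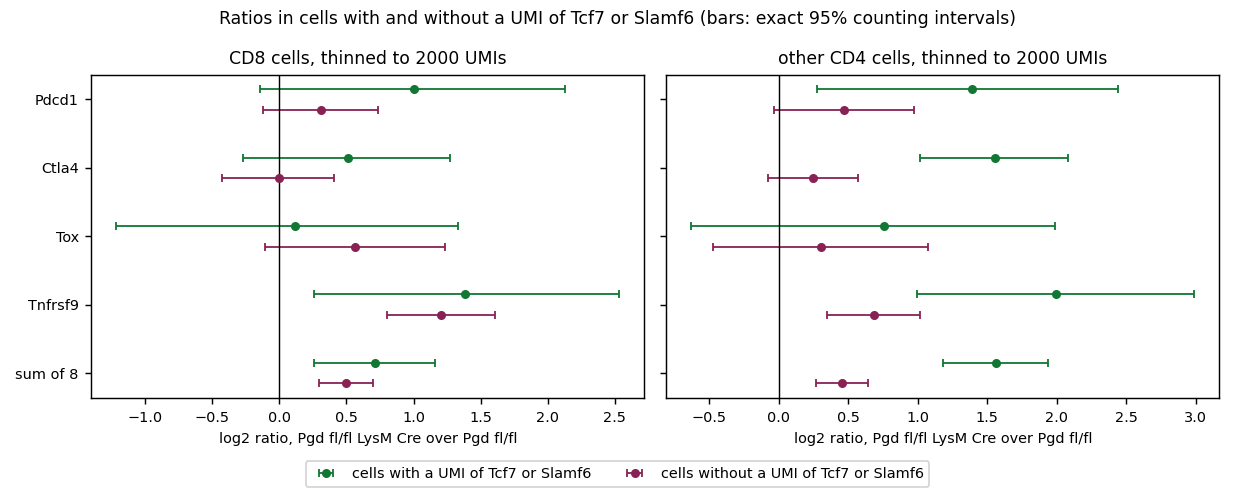
Log2 ratio, 6PGDKO over WT, in thinned CD8 and other CD4 cells with (green) and without (purple) a UMI of Tcf7 or Slamf6, where WT is Pgd fl/fl, 6PGDKO is Pgd fl/fl LysM Cre and bars are exact 95% counting intervals. In CD8 cells without one, Tnfrsf9 lay at 1.20 while the intervals of Pdcd1, Ctla4 and Tox included 0.

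Of the other lists, all 6 cycling genes were higher in 6PGDKO CD8 cells, and 3 of them at least 2-fold: Birc5 at a log2 ratio of 1.07, Ccnb2 at 1.01 and Cdk1 at 1.00 (Mki67, at 0.98, was just short of it), against 4.1% of all genes. In other CD4 cells 2 of the 6 were at least 2-fold higher, Mki67 at 1.68 and Top2a at 1.17, against 5.02% of all genes. There Pclaf was at 0.67 (0.20 to 1.14) and Birc5 at 0.64 (0.07 to 1.20), while Cdk1, at 0.21 (-0.80 to 1.18), and Ccnb2, at -0.13 (-1.01 to 0.71), had intervals that included 0. In CD8 cells without Mki67 and Top2a the Tnfrsf9 ratio was 1.31 and the Pdcd1 ratio 0.93. In Foxp3-positive cells none of the 6 was past 2-fold, against 1.9% of all genes higher and 2.02% lower.

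Of 8 other inhibitory receptors, only Klrg1 was past 2-fold in CD8 cells, at 1.38 (-0.05 to 2.94) from 7 and 13 UMIs. In Foxp3-positive and other CD4 cells 0 of the 6 with 20 UMIs were. Of all genes, 4.1% were at least 2-fold higher and 1.17% lower in CD8 cells. These shares were 1.9% and 2.02% in Foxp3-positive and 5.02% and 3.75% in other CD4 cells. In lists this short, counts of 0 or 1 cannot be told apart from such shares. None of 8 costimulatory receptors was past 2-fold in these 3 types. They summed to 0.42 (0.34 to 0.50) in other CD4 and 0.17 (0.11 to 0.22) in CD8 cells. The 8 genes were at 0.60 and 0.82 there. The other inhibitory receptors summed to -0.17 (-0.40 to 0.06) in other CD4 cells. Of 13 exhaustion-linked transcription factors, 12 had 20 UMIs in each of these 3 types. Nr4a2, a factor induced by T cell receptor signals, was the only one 2-fold higher in other CD4 cells, against 5.02% of all genes. It was at 1.14 (0.74 to 1.55) there, its relative Nr4a3 at 0.97 (0.60 to 1.34) and Nr4a1 at -0.23 (-0.48 to 0.02). In CD8 cells Nr4a2 was at 0.60 (0.40 to 0.80), Nr4a3 at 0.27 (-0.01 to 0.55) and Nr4a1 at -0.14 (-0.28 to -0.01). None of the list was past 2-fold in CD8 cells, where its median was 0.23. In other CD4 cells this list summed to 0.47 (0.39 to 0.55). Tox2, a relative of Tox, was at -1.53 (-3.32 to -0.03) in Foxp3-positive cells from 17 and 5 UMIs.

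Of 11 effector genes, among them granzymes and perforin, none was past 2-fold in CD8 cells, against 4.1% of all genes higher and 1.17% lower. The list's median log2 ratio was 0.23 there. In other CD4 cells the list summed to 0.49 (0.40 to 0.58). Ccl4, a chemokine of activated T cells, was 1 of 10 past 2-fold there, at 1.67 (1.43 to 1.91), against 5.02% of all genes. In Foxp3-positive cells Gzma was 1 of 10 past it, at -2.84 (-3.89 to -1.93) from 93 and 11 UMIs, against 2.02%. Of 7 regulatory T cell genes, 2 were 2-fold higher in other CD4 cells, against 5.02% of all genes. These were Il10, at 1.19 (0.66 to 1.72), and Ccr8, at 1.18 (0.35 to 2.03). The list summed to 0.68 (0.58 to 0.78) there, with Il2ra at 0.82 and Izumo1r lower, at -0.61. None was past 2-fold in Foxp3-positive or CD8 cells.

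In NK cells the listed genes past 2-fold were Nr4a2 at 1.49, Batf at 1.08, Ccr7 at 3.63 from 2 and 50 UMIs and Top2a at 1.57. The macrophage marker C1qb was also past it, at 1.80 from 3 and 21 UMIs. Pclaf had 0 and 27 UMIs, 4.46-fold higher when the 0 is counted as 3 UMIs (lower bound of the log2 ratio 1.76). Lower were Cd96 at -1.43, Id3 at -1.33 and Gzmb at -1.14. In gamma-delta cells they were Ifng at 1.49, Gzmb at 1.46 and Cd226 at 1.01, with Ccl4 at -3.40, Nr4a1 at -3.16, and the 4 naive-type genes Id3, S1pr1, Satb1 and Tcf7 between -3.71 and -1.24. Gzma had 0 and 71 UMIs there, 34.5-fold higher on the same count (lower bound of the log2 ratio 4.77). These values rest on 31 and 55 NK and 24 and 12 gamma-delta cells.

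Markers of macrophages differed between the libraries in the T cell gates. Of 2006 WT and 1553 6PGDKO cells with Cd3, 244 and 447 had been left out for macrophage UMIs, a larger part in 6PGDKO. The epithelial limit was passed by 78 and 126 of these cells and the B cell limit by 55 and 19. The 5 markers C1qa, C1qb, C1qc, Apoe and Lyz2 summed to 226 and 317 CPM in CD8 cells and 498 and 865 CPM in other CD4 cells, and to 438 and 451 CPM in Foxp3-positive cells. Lyz2, the lysozyme M gene, was at least 2-fold lower in 6PGDKO in each of these 3 types. It was at -1.54 in CD8, -2.18 in Foxp3-positive and -1.88 in other CD4 cells. The Cre of 6PGDKO mice lies in the Lyz2 locus. Since the sums include Lyz2, they rise less in 6PGDKO than sums without it would. In Foxp3-positive cells C1qa was at 0.66 and C1qb at 0.83, with C1qc and Apoe at -0.09 each. C1qc was 3.66-fold higher in other CD4 cells, from 28 and 59 UMIs. In NK cells the 5 markers summed to 271 and 385 CPM. None of the 5 was at 0 in either library in these 3 types. The 5 B cell markers summed to 107 and 65.2 CPM in CD8 cells, and B cells were 14.2% of WT and 1.14% of 6PGDKO cells. With 0 UMIs of the genes that define these other cell types, the summed log2 ratio of the 8 genes was 0.74 in CD8 and 0.50 in other CD4 cells, and with no limit it was 0.73 and 0.25.

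Over the 10 profiles of 5 types and 2 libraries, the genes whose log2(CPM + 10) followed each gene most closely among 9496 were found by Pearson correlation, as a description only, since profiles from 1 library share its depth and its mice. For Tnfrsf9 these were Pgam1, Il2ra and Alg9 (r = 0.98 each). For Pdcd1 they were Csf1 at 0.99, Htatsf1 at 0.96 and Cd5 at 0.94, and for Ctla4 Itpkb, Trp53inp1 and Tnfrsf4, a costimulatory receptor of the same family as Tnfrsf9, between 0.97 and 0.98. For Lag3 they were Nt5e, Fkbp1a and Coro7 (0.96 to 0.97) and for Havcr2 Ctss, Fam129a and Map2k3 (0.99 each). CD73, the product of Nt5e, acts after CD39 in the breakdown of ATP. For Entpd1 they were Isoc2b, Cep85l and Mthfsl (0.95 each), for Tigit Coq8a, Rnase4 and Rragd (0.983 to 0.995), and for Tox Sptssa, Cd44 and Arhgap31 (0.92 to 0.93).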

How the data were processed

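Sorted cells of pooled tumors were profiled by droplet single-cell RNA sequencing with multiplexing oligonucleotides. The authors deposited whole-number UMI counts per gene and filtered barcode, made with Cell Ranger 6.1.2 on mm10, and these counts were used as deposited. No per-sample column was left unused. Kept barcodes had 500 to 7500 genes and no more than 15% mitochondrial UMIs, without a doublet caller, and cells with more than 1 UMI of macrophage, B cell or epithelial genes were left out of the lymphocyte gates. UMIs were summed per type and library and divided by the total. Intervals were exact Poisson (levels), conditional (ratios) and Clopper-Pearson (shares). Genes with 20 UMIs over both libraries were counted against a 2-fold threshold, and cells were thinned to 2000 UMIs with a fixed seed. Named were the 8 genes, the genes of each list past the fold (at most 5 per list and type, by UMIs), and the 3 genes most like each by Pearson correlation. The ratio code was tested on simulated data. Members, lists and gates were chosen with earlier results of these data known. The sums without Tcf7- or Slamf6-positive cells and without Tnfrsf9 were chosen after seeing the data. 1 gene of the naive-type list is not reported here. Python 3.11.15, numpy 2.4.6, pandas 2.3.3, scipy 1.17.1 and matplotlib 3.10.9 were used. Promoter windows and gene positions came from RefSeq tables of GRCm38.p6.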

Additional observations from a re-analysis of the deposited data

Results flagged for a closer look

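A few ratios of 6PGDKO to WT lay below 0 with their whole interval in one lymphocyte type and above 0 in another. Lag3 was at a log2 ratio of -0.46 in Foxp3-positive cells and at -1.86 in NK cells, against 0.94 in CD8 and 0.67 in other CD4 cells. Tox was at -1.79 in NK cells, against 0.32 in CD8 cells. The NK values rest on 9 and 5 Lag3 UMIs and on 12 and 7 Tox UMIs. In cells thinned to 2000 UMIs the Foxp3-positive Lag3 ratio was 0.05. With no limit on UMIs of other cell types the Lag3 ratio in other CD4 cells was 0.06. As a mean over cells the Lag3 ratio in CD8 cells was 0.39. For Tox in CD8 cells, no difference beyond the shift of all genes was detectable. With 1 library per genotype, the difference between types was not tested.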

How the results depend on the processing

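No paired analysis was possible because each genotype had 1 library. The values below are log2 ratios of the 8 genes summed, 6PGDKO over WT. With no limit on UMIs of other cell types, the sum was -0.21 in Foxp3-positive cells, a change of sign, and 0.25 in other CD4 cells. The NK sum, close to 0, had the same sign in 9 of 14 settings, between -0.56 and 0.27. With 1 more lineage UMI required, the sum was 0.065 in Foxp3-positive and 0.42 in other CD4 cells. Thinned to 2000 UMIs, it was 0.61 in CD8, 0.19 in Foxp3-positive and 0.84 in other CD4 cells. In CD8 and other CD4 cells it was 0.69 and 0.45 with median-of-ratios scaling, 0.72 and 0.46 with ribosomal and mitochondrial genes left out of the total, and 0.61 and 0.79 as a mean over cells. It was 0.80 in other CD4 cells without cycling cells. Without cells that carried Tcf7 or Slamf6, it was 0.57 in CD8 and 0.13 in other CD4 cells. Without Tnfrsf9 it was 0.59 in CD8, 0.47 in other CD4 and -0.56 in NK cells. The cause of these shifts was not tested. The other settings left the sums within their counting intervals. The lack of replicate libraries, and the few gamma-delta and NK cells, limit all of these values.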
